A study of Caenorhabditis elegans with 12 samples.

Results

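The genes described here encode the mitochondrial respiratory chain and ATP synthase of Caenorhabditis elegans, measured in whole adult worms. They were chosen by symbol: every gene whose symbol starts with nuo-, nduf-, sdha-, sdhb-, sdhd-, ucr-, cox-, atp-, asb- or asg-, together with gas-1, lpd-5, mev-1, isp-1, cyc-1 and clk-1. The reference table held 51 such genes, and 50 of them had a probe on the array; cox-16 was the gene without a matched probe. All 50 passed the signal filter, out of 13481 genes that passed it among the 19814 genes with a probe. By complex they were 14 genes of complex I, 5 of complex II, 7 of complex III, 7 of complex IV and 9 of complex V. The other members were 7 genes with the cox- prefix that encode assembly factors rather than subunits of complex IV, and clk-1, an enzyme of ubiquinone synthesis. The subunits encoded in mitochondrial DNA were not analysed here. The array lists them under names that the reference table does not pair with its symbols.

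The 12 arrays were single-colour microarrays hybridised with Cy3-labelled cRNA from total RNA, 3 arrays for each of 4 groups. The first group was daf-2(e1370) worms grown at 15 °C and moved to 25 °C for 12 h. The other groups were N2, the wild-type laboratory strain, kept at 15 °C, N2 moved to 25 °C for 3 h, and N2 moved to 25 °C for 12 h. All worms were uncrowded, well fed and grown at 15 °C until young adult before any shift. The e1370 allele is a missense mutation in the insulin-like receptor gene daf-2, so the level of daf-2 RNA does not check the strain.

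The respiratory chain passes electrons through complexes of the inner mitochondrial membrane. Complex I takes them from NADH and complex II from succinate, ubiquinone carries them to complex III, and cytochrome c carries them on to complex IV, where oxygen is reduced. Complexes I, III and IV pump protons, and complex V, the ATP synthase, uses the return of those protons to make ATP. In worms, partial loss of several of these subunits is known to change lifespan, growth rate and sensitivity to oxygen, and loss of function of daf-2 is known to extend lifespan through the transcription factor DAF-16.

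The replicates carry the names A, B and 1, and each name stood for 1 slide that held 1 array of every group. Nothing in the labels ties a replicate to its own culture, and sets A and 1 are numbered alike, so each p-value reflects variation among arrays that may be partly technical. The share of gene spots called well above background was 55.5% to 61.3% in sets A and B, against 80.8% to 84.9% in set 1. Within groups the arrays correlated at 0.918 to 0.983 across genes. The strain labels were checked with targets of DAF-16: sod-3, a superoxide dismutase, was higher in daf-2 by 3.25 ± 0.24 on the log2 scale (SE; limma adjusted p = 3.5e-05) and mtl-1, a metallothionein, by 6.68 ± 0.88 (SE; limma adjusted p = 0.000661). Set B stood apart in its sperm genes: over 34 of 46 sperm markers that passed the filter, the mean log2 signal was -1.07 on its daf-2 array, and 4.62, 4.61 and 4.09 on its N2 arrays at 15 °C, 3 h and 12 h. On the other sets the same mean was 1.36 and 1.43 in daf-2, and between 0.14 and 2.79 in N2.

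Between daf-2 and N2 after 12 h at 25 °C, the calls among the respiratory chain genes were few and all in 1 direction. Of the 50 members, 7 fell in daf-2 at an adjusted p under 0.05, none rose, and 43 did not pass. The background over all genes tested was 7.6% lower and 14.4% higher, so the 7 of 50 stand against 7.6% and the count of 0 higher stands against 14.4%. At limma's unadjusted p under 0.05 there were 18 members (36%), all lower, against 36.6% of all genes tested in either direction. The shares were alike only with direction set aside. By direction, 18 of the 50 members were lower and 0 higher. Of the 13481 genes tested, 2205 were lower and 2726 higher at that level. The 7 were nduf-11 of complex I, ucr-2.3 of complex III, the copper chaperone gene cox-17, and atp-2, atp-4, asb-1 and asg-1 of complex V, with log2 differences between -0.70 and -0.53.

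Differences below 0 were found for 48 of the 50 members, against 58.2% of all genes tested, and cox-6A and cox-10 were the exceptions. The median log2 difference over the members was -0.38, which is 0.77 times the N2 level, against -0.14 over all genes tested. Within the slides, the members' median was -0.33 in set A, -0.31 in set B and -0.44 in set 1, with 42, 47 and 50 members below 0. For 21 members all daf-2 arrays lay below all N2 arrays, against 21.4% of all genes tested. With the slide as a replicate block in the model, 25 members fell and none rose, against a background of 17.6% lower and 19.9% higher. The block assumes a shift shared by the arrays of a slide. Deviations from the group means correlated between daf-2 and N2 at 0.39, -0.4 and 0.128 in sets A, B and 1, so that shift was not consistent. Quantile normalization brought the members' median to -0.22 with 43 members below 0, and centring on the array median brought it to -0.62 with all 50 below 0. That centring also moved the median over all genes tested to -0.38, so relative to all genes the members' median was -0.24 in both scalings, and it was -0.11 with quantile normalization.

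**Figure D1:**
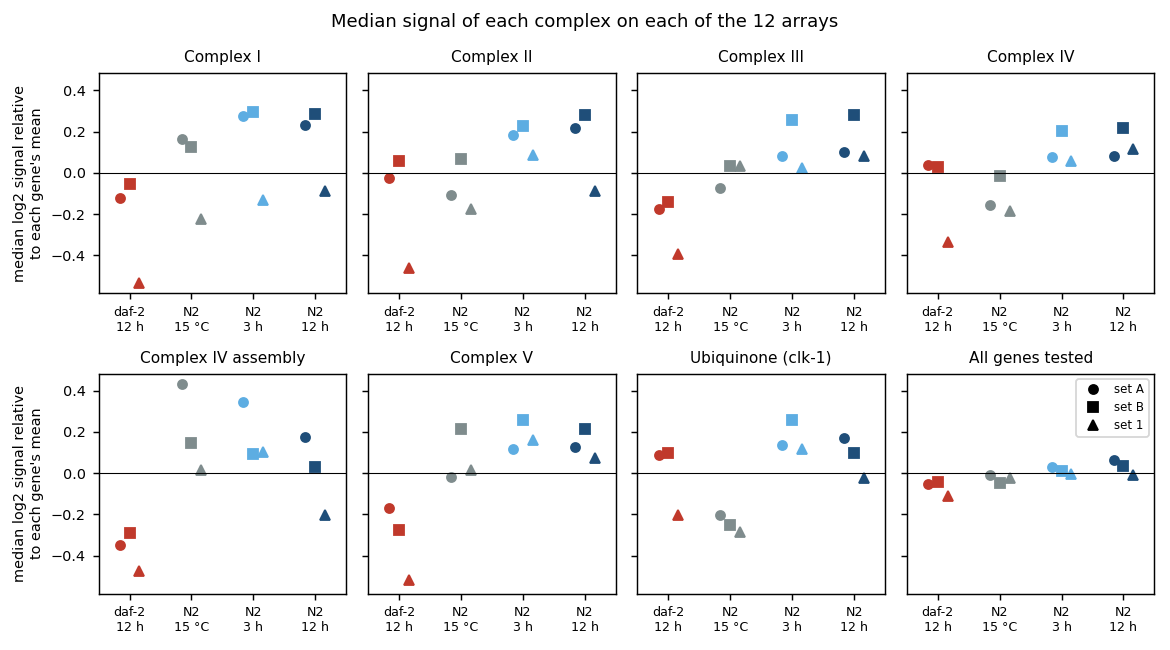
Median log2 signal of each complex on each of the 12 arrays, with every gene set relative to its own mean over the arrays; colours are groups, and symbols are replicate sets. For complex V the 3 daf-2 arrays lie at -0.17, -0.28 and -0.52, below all N2 arrays, while the daf-2 arrays of complex IV overlap those of N2 at 15 °C.

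**Figure D2:**
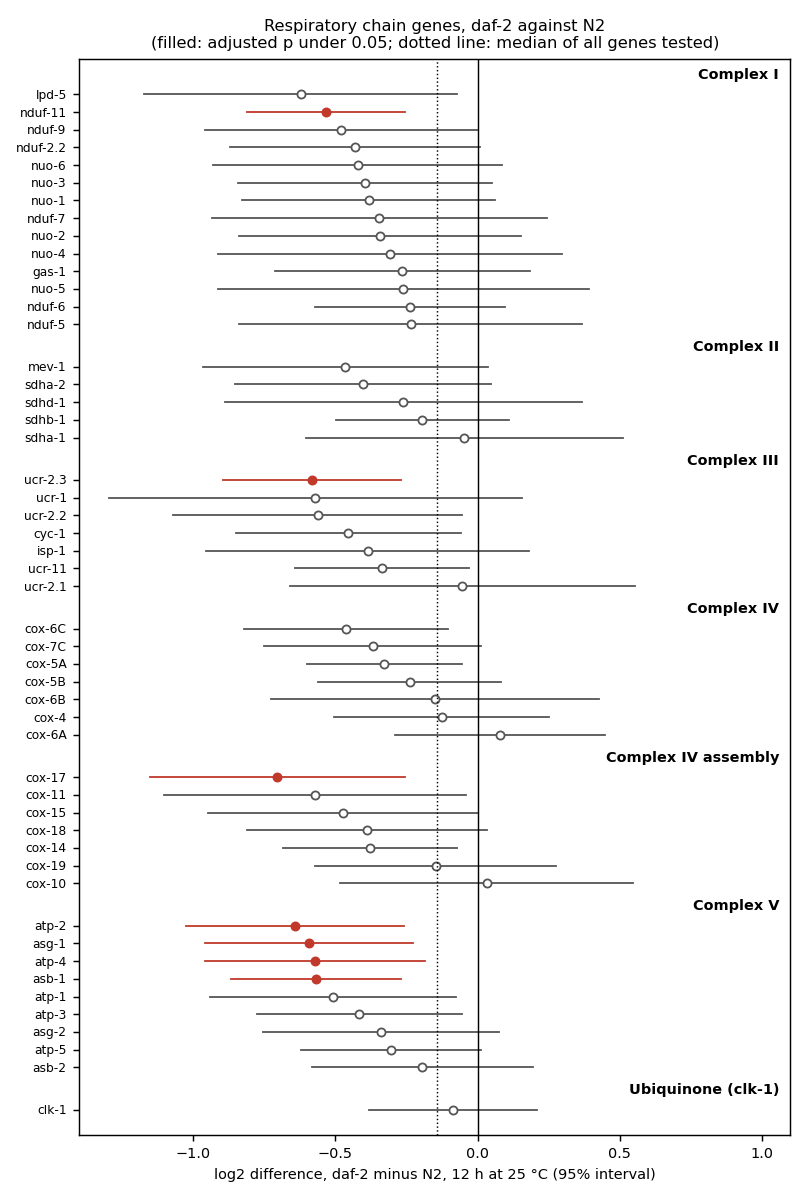
Log2 difference of each of the 50 members, daf-2 minus N2, both after 12 h at 25 °C, with 95% intervals from limma, by complex. The 7 filled points passed an adjusted p under 0.05 and are all below 0; the dotted line is the median over all genes tested, -0.14.

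Log2 signals in what follows are relative to the array's 75th percentile, which is 0 on this scale, and are given in the order of sets A, B and 1. Differences are daf-2 minus N2 after 12 h at 25 °C unless another comparison is named, and adjusted p-values come from limma. Levels are compared only within a gene, since probes differ in how brightly they bind.

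Complex I, the NADH dehydrogenase, had 14 members, all with differences below 0 and a median of -0.36. In the test 1 of the 14 passed, which is near the 7.6% of all genes tested that were lower. The gene that passed was nduf-11. Its log2 signal was 3.36, 3.35 and 3.35 in daf-2, against 3.92, 3.94 and 3.78 in N2 at 12 h. The daf-2 arrays were nearly equal to each other and all lay below the N2 arrays. The difference was -0.53 ± 0.12 (SE; limma adjusted p = 0.0132), or 0.69 times the N2 level. In N2 its log2 signal was 4.0, 3.79 and 3.80 at 15 °C and 4.12, 3.96 and 3.97 after 3 h, so every N2 array of every time was above the daf-2 arrays. A second probe of nduf-11 gave -0.48 with limma adjusted p = 0.21.

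The largest difference of complex I by size was that of lpd-5, the homolog of the human accessory subunit NDUFS4, although it did not pass. Its log2 signal was 2.73, 3.48 and 2.81 in daf-2, against 3.67, 3.84 and 3.38 in N2 at 12 h, a difference of -0.62 ± 0.25 (SE; limma adjusted p = 0.0982). The daf-2 array of set B overlapped the N2 range. At 15 °C lpd-5 stood at 3.56, 3.65 and 3.19, and after 3 h at 3.79, 3.86 and 3.28.

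The core subunit gene nuo-1, the homolog of NDUFV1 that holds the NADH binding site, had 4.01, 4.05 and 3.61 in daf-2, against 4.44, 4.47 and 3.91 in N2 at 12 h. Each daf-2 array was below the N2 array of its own slide, but the groups overlapped because both set 1 arrays were low. Its N2 values were 4.24, 4.29 and 3.91 at 15 °C and 4.42, 4.40 and 4.18 after 3 h. The accessory subunit gene nuo-6, in which a mutation is known to lengthen lifespan, had 3.98, 3.92 and 3.32 in daf-2, against 4.36, 4.21 and 3.92 in N2 at 12 h. Again the groups overlapped and the set 1 array was the lowest of each. For nuo-6 in N2, the signal was 4.14, 3.87 and 3.80 at 15 °C and 4.30, 4.37 and 3.81 after 3 h. The differences were -0.38 ± 0.20 for nuo-1 and -0.42 ± 0.23 for nuo-6 (SE), and neither passed.

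Mutants of gas-1, a complex I gene, are sensitive to anaesthetics and oxygen. For gas-1 the daf-2 array of set A had an unevenly lit spot and gave no value; sets B and 1 had 2.68 and 2.55 in daf-2, against 2.83, 2.99 and 2.81 in N2 at 12 h. Both daf-2 values lay below the N2 values, and the fitted difference was -0.26 ± 0.20 (SE; limma adjusted p = 0.348). In N2, gas-1 stood at 2.43, 2.82 and 2.48 at 15 °C and at 2.58, 2.94 and 2.41 after 3 h.

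The remaining 9 members of complex I, nuo-2, nuo-3, nuo-4, nuo-5, nduf-2.2, nduf-5, nduf-6, nduf-7 and nduf-9, had differences between -0.48 and -0.24, and none passed. The ends of that range were nduf-9, the homolog of NDUFA9, and nduf-5. The signal of nduf-9 was 2.80, 2.87 and 2.41 in daf-2, against 3.38, 3.31 and 2.82 in N2 at 12 h, with overlap through the low set 1 array of N2. At 15 °C nduf-9 had 3.08, 2.90 and 2.57, and after 3 h 3.08, 3.17 and 2.77. For nduf-5 the signal was 3.00, 3.06 and 2.39 in daf-2, against 3.09, 3.25 and 2.82 in N2 at 12 h, and the groups overlapped.

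Complex II, succinate dehydrogenase, links the citric acid cycle to the chain; 0 of its 5 members passed, and all were below 0 with a median of -0.26. That median was -0.07 without the daf-2 array of set 1, -0.15 without the N2 array of set B, -0.43 without the daf-2 array of set B and -0.40 without the N2 array of set 1, and it was -0.13 with quantile normalization. The median over all genes tested was -0.10 without the daf-2 array of set 1, -0.11 with quantile normalization and -0.14 in the other fits named. Complex II was thus not always below all genes, and no direction relative to them is given. The gene mev-1 encodes the cytochrome b subunit, and its mutants are short-lived and sensitive to oxygen. Its log2 signal was 2.77, 3.39 and 2.69 in daf-2, against 3.45, 3.63 and 3.17 in N2 at 12 h. Set B of daf-2 overlapped the N2 arrays, and the difference was -0.46 ± 0.23 (SE; limma adjusted p = 0.164). At 15 °C mev-1 was at 3.38, 3.31 and 3.04, and after 3 h at 3.46, 3.46 and 3.01.

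The flavoprotein subunit is encoded by sdha-1 and sdha-2. The signal of sdha-1 was 0.10, 0.02 and -0.50 in daf-2, against -0.25, 0.25 and -0.23 in N2 at 12 h, a difference of -0.05 ± 0.25 (SE). The groups overlapped fully, and set A was higher in daf-2 while the other sets were lower. In N2, sdha-1 had -0.22, 0.36 and -0.21 at 15 °C and -0.20, 0.41 and 0.06 after 3 h. For sdha-2 the signal was 2.23, 2.68 and 2.2 in daf-2, against 2.93, 2.92 and 2.47 in N2 at 12 h. The set A and set 1 arrays of daf-2 were below every N2 array and the set B array was not; the difference was -0.40 ± 0.20 (SE). The N2 values of sdha-2 were 3.09, 2.58 and 2.72 at 15 °C and 2.87, 2.64 and 2.76 after 3 h.

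The iron-sulfur subunit gene sdhb-1 had 4.62, 4.64 and 4.26 in daf-2, against 4.69, 4.79 and 4.62 in N2 at 12 h. The groups met at the edge, and the difference was -0.19 ± 0.14 (SE). Its N2 values were 4.5, 4.55 and 4.49 at 15 °C and 4.72 on all 3 arrays after 3 h, so the 3 h arrays were above those at 15 °C. The membrane anchor gene sdhd-1 had 4.76, 5.04 and 4.34 in daf-2, against 5.01, 5.22 and 4.70 in N2 at 12 h, with overlap and a difference of -0.26 ± 0.28 (SE). It varied most at 15 °C, with 3.90, 4.86 and 4.49, where the set A array was far below the others, and it had 4.97, 5.39 and 4.80 after 3 h.

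Complex III, the cytochrome bc1 complex, had 1 of 7 members past the test, against 7.6% of all genes tested lower, and a median of -0.45. The member that fell was ucr-2.3, a gene for a core protein, with 2.06, 2.27 and 2.25 in daf-2, against 2.78, 2.78 and 2.76 in N2 at 12 h. The daf-2 arrays lay well below the N2 arrays, which were nearly equal. The difference was -0.58 ± 0.14 (SE; limma adjusted p = 0.0153), or 0.67 times the N2 level. In N2 the signal was 3.00, 2.69 and 2.88 at 15 °C and 2.96, 2.73 and 3.02 after 3 h, again above every daf-2 array.

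The related core protein genes ucr-2.1 and ucr-2.2 did not pass. For ucr-2.2 the signal was 1.46, 1.29 and 1.27 in daf-2, against 1.90, 1.94 and 1.85 in N2 at 12 h, with no overlap and a difference of -0.56 ± 0.23 (SE; limma adjusted p = 0.103). It ranged widely at 15 °C, with 1.22, 2.08 and 1.70, and it had 1.48, 2.11 and 1.64 after 3 h. The signal of ucr-2.1 was 3.63, 3.73 and 3.02 in daf-2, against 3.30, 3.88 and 3.36 in N2 at 12 h. Here the groups overlapped and the difference was -0.05 ± 0.27 (SE), close to 0. At 15 °C ucr-2.1 was at 3.21, 3.66 and 3.00, and after 3 h at 3.40, 3.72 and 3.04.

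The Rieske iron-sulfur protein gene isp-1, known for a long-lived mutant, had 4.33, 4.46 and 3.83 in daf-2, against 4.75, 4.84 and 4.19 in N2 at 12 h. Each daf-2 array was lower than its slide partner by a similar step, but set 1 was low in both groups and the ranges overlapped; the difference was -0.39 ± 0.26 (SE). In N2 it had 4.43, 4.43 and 3.96 at 15 °C and 4.47, 4.82 and 4.18 after 3 h. Cytochrome c1, encoded by cyc-1, had 1.49, 1.52 and 1.2 in daf-2, against 1.94, 1.94 and 1.69 in N2 at 12 h, without overlap, and a difference of -0.45 ± 0.18 (SE; limma adjusted p = 0.0936). All 4 probes of cyc-1 were below 0 in daf-2, from -0.49 to -0.37, and 1 of them, not used for the gene, passed. At 15 °C the N2 values of cyc-1 were 1.59, 1.82 and 1.25, and after 3 h 1.91, 1.92 and 1.69.

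The core protein 1 gene ucr-1 was the most variable member, with 4.29, 5.13 and 4.83 in daf-2, against 4.94, 5.84 and 5.18 in N2 at 12 h. In N2 it had 5.48, 4.95 and 5.17 at 15 °C and 4.53, 4.25 and 5.24 after 3 h. Sets A and B of the 3 h group were low and set 1 was not, and the standard error of each ucr-1 difference was 0.33, the highest among the members. Only 1 of its 6 probes passed the signal filter. The last gene of the complex, ucr-11, had a difference of -0.34 ± 0.14 (SE; limma adjusted p = 0.105), with all daf-2 arrays below the N2 arrays.

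Complex IV, cytochrome c oxidase, was measured through 7 nuclear genes for small subunits around the mitochondrially encoded core. None of the 7 passed, 6 were below 0, and the median of -0.24 turned to 0.02 under quantile normalization, so no direction is given for this complex. The signal of cox-6C was 5.29, 5.78 and 5.39 in daf-2, against 5.89, 6.05 and 5.91 in N2 at 12 h. All daf-2 arrays were below the N2 arrays, and the difference was -0.46 ± 0.16 (SE; limma adjusted p = 0.0655). For cox-5A, whose daf-2 arrays were also all below, the signal was 5.62, 5.56 and 5.54 in daf-2, against 5.85, 5.84 and 6.01 in N2 at 12 h (difference -0.33 ± 0.12, SE; limma adjusted p = 0.0826). In N2, cox-6C had 5.61, 5.88 and 5.57 at 15 °C and 5.89, 6.0 and 5.81 after 3 h.

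The cox-5B arrays had 5.91, 5.89 and 5.53 in daf-2, against 5.97, 6.08 and 5.98 in N2 at 12 h, a difference of -0.24 ± 0.14 (SE). The daf-2 arrays were below the N2 arrays, by a margin that was narrow for sets A and B. For cox-7C the signal was 5.26, 4.66 and 4.92 in daf-2, against 5.16, 5.41 and 5.38 in N2 at 12 h, with the set A array in the N2 range. Its difference was -0.37 ± 0.17 (SE; limma adjusted p = 0.149). At 15 °C the N2 signals were 5.61, 5.71 and 5.84 for cox-5A, 5.61, 5.83 and 5.67 for cox-5B and 4.97, 5.12 and 5.11 for cox-7C. After 3 h they were 5.85, 5.88 and 5.93 for cox-5A, 5.94, 6.07 and 5.89 for cox-5B and 5.2, 5.47 and 5.22 for cox-7C. In each of these 3 genes the N2 arrays at 3 h were all above those at 15 °C for the probe used. Over all their probes, the difference after 3 h ran from -0.29 to 0.29 for cox-5A and from -0.40 to 0.26 for cox-5B.

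The remaining subunit genes cox-4, cox-6A and cox-6B showed no separation between the strains. In daf-2 the signal of cox-4 was 4.71, 4.77 and 4.36, against 4.49, 4.97 and 4.76 in N2 at 12 h. That of cox-6A was 6.12, 6.18 and 5.68 in daf-2, against 5.94, 5.97 and 5.82 in N2 at 12 h, the 1 subunit gene with a difference above 0 (0.08 ± 0.17, SE), and it was -0.16 with centring on the array median. For cox-6B it was 5.99, 5.79 and 5.10 in daf-2, against 5.83, 5.84 and 5.66 in N2 at 12 h. In each of these genes the set 1 array of daf-2 was the lowest of its group. At 15 °C the N2 signals were 4.84, 4.86 and 4.63 for cox-4, 5.66, 5.86 and 5.63 for cox-6A and 5.64, 5.82 and 5.30 for cox-6B. After 3 h they were 4.72, 4.88 and 4.84 for cox-4, 5.91, 6.03 and 5.73 for cox-6A and 5.97, 6.09 and 5.42 for cox-6B.

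The complex IV assembly factors had 1 of 7 members past the test, against 7.6% of all genes tested lower, and a median of -0.39. The copper chaperone gene cox-17, which hands copper on to the oxidase, fell by the largest amount among the 50 members. Its log2 signal was 1.85, 1.65 and 1.15 in daf-2, against 2.49, 2.24 and 2.04 in N2 at 12 h. On every slide the daf-2 array was the lower, and the groups did not overlap. The difference was -0.70 ± 0.20 (SE; limma adjusted p = 0.0321), or 0.61 times the N2 level. In N2, cox-17 had 2.75, 2.56 and 2.49 at 15 °C and 2.78, 2.68 and 2.50 after 3 h.

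The copper delivery gene cox-11 had a difference of -0.57 ± 0.24 (SE; limma adjusted p = 0.113). The genes cox-14, of assembly, and cox-15, of heme A synthesis, had differences of -0.38 and -0.47, and neither passed. A second probe of cox-14, not used for the gene, gave -0.57 with limma adjusted p = 0.031. The membrane insertion gene cox-18 had -2.25, -2.11 and -2.29 in daf-2, against -1.64, -1.78 and -2.05 in N2 at 12 h, without overlap (difference -0.39 ± 0.19, SE). In N2, cox-18 had -1.21, -1.71 and -1.82 at 15 °C and -1.45, -1.76 and -1.72 after 3 h. The assembly gene cox-19 had 2.13, 1.97 and 1.42 in daf-2, against 1.92, 2.11 and 1.93 in N2 at 12 h, where set A was higher and the other sets were lower in daf-2 (difference -0.15). Its N2 values were 1.93, 2.24 and 2.12 at 15 °C and 2.23, 2.36 and 2.14 after 3 h. The heme A synthesis gene cox-10 had -4.17, -4.07 and -4.13 in daf-2, against -4.08, -4.58 and -3.82 in N2 at 12 h. The N2 arrays reached beyond the daf-2 arrays on both sides, and its difference was 0.03 ± 0.23 (SE), which turned below 0 with quantile normalization and with centring on the median. At 15 °C cox-10 had -3.68, -3.78 and -3.41, and after 3 h -4.17, -3.84 and -3.44.

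Complex V, the ATP synthase, held most of the calls: 4 of its 9 members fell, against 7.6% of all genes tested, none rose, 5 did not pass, and the median was -0.51. All 9 were below 0, and 7 had daf-2 arrays entirely below the N2 arrays, against 21.4% of all genes. The catalytic beta subunit gene atp-2 had 5.78, 5.29 and 5.38 in daf-2, against 6.23, 6.25 and 5.90 in N2 at 12 h. The highest daf-2 array, of set A, was still below the lowest N2 array, and the difference was -0.64 ± 0.17 (SE; limma adjusted p = 0.0252), 0.64 times the N2 level. Both probes of atp-2 passed, at -0.64 and -0.47. In N2 it stood at 6.15, 6.40 and 6.06 at 15 °C and 6.18, 6.29 and 6.22 after 3 h.

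For atp-4, which encodes coupling factor 6 of the stalk, the signal was 4.76, 4.17 and 4.57 in daf-2, against 4.94, 5.15 and 5.12 in N2 at 12 h. The daf-2 arrays were lower without overlap, most of all in set B, by -0.57 ± 0.17 (SE; limma adjusted p = 0.0412), 0.67 times the N2 level. The N2 values of atp-4 were 4.86, 4.93 and 4.99 at 15 °C and 4.82, 5.14 and 5.14 after 3 h. Subunit g, which lies in the membrane part of the enzyme, is encoded by asg-1, and its signal was 5.15, 4.81 and 4.63 in daf-2, against 5.55, 5.53 and 5.29 in N2 at 12 h. Here too the groups did not overlap, and the difference was -0.59 ± 0.16 (SE; limma adjusted p = 0.0284), 0.66 times the N2 level. At 15 °C asg-1 was at 5.50, 5.63 and 5.41, and after 3 h at 5.71, 5.79 and 5.54.

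The stator subunit b has 2 genes, of which asb-1 is known as the germline form. The signal of asb-1 was 4.05, 4.14 and 3.89 in daf-2, against 4.67, 4.63 and 4.49 in N2 at 12 h. The step was similar on all 3 slides, at -0.62, -0.49 and -0.59, and the fitted difference was -0.57 ± 0.13 (SE; limma adjusted p = 0.0137), 0.67 times the N2 level. All 3 probes of asb-1 passed, with differences from -1.24 to -0.57. In N2, asb-1 had 4.61, 4.33 and 4.43 at 15 °C and 4.64, 4.52 and 4.55 after 3 h.

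The other form, asb-2, had 4.25, 4.13 and 3.86 in daf-2, against 4.25, 4.39 and 4.17 in N2 at 12 h. The set A arrays were almost equal and the groups overlapped, with a difference of -0.19 ± 0.17 (SE; limma adjusted p = 0.424). Its N2 values were 3.99, 4.44 and 3.95 at 15 °C and 4.19, 4.36 and 4.10 after 3 h. The second subunit g gene, asg-2, had 4.49, 4.14 and 3.94 in daf-2, against 4.51, 4.45 and 4.63 in N2 at 12 h, a difference of -0.34 ± 0.19 (SE). Its set A array of daf-2 was within the N2 range; at 15 °C asg-2 had 4.41, 4.84 and 4.48, and after 3 h 4.57, 4.85 and 4.47.

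The alpha subunit gene atp-1 had 4.62, 4.56 and 4.17 in daf-2, against 4.95, 5.25 and 4.67 in N2 at 12 h, without overlap, and a difference of -0.51 ± 0.19 (SE; limma adjusted p = 0.0878). All 10 of its probes were below 0, from -0.66 to -0.30, and 1 of them, not used for the gene, passed. For atp-3, which encodes the oligomycin sensitivity protein at the top of the stator, the signal was 5.53, 5.42 and 5.42 in daf-2, against 5.82, 5.74 and 6.06 in N2 at 12 h. The subunit d gene atp-5 had 5.98, 6.03 and 5.63 in daf-2, against 6.14, 6.22 and 6.18 in N2 at 12 h. In both genes the daf-2 arrays were all below the N2 arrays, by -0.41 ± 0.16 for atp-3 and -0.30 ± 0.14 for atp-5 (SE), and neither passed.

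At 15 °C the N2 signals were 4.77, 5.0 and 4.59 for atp-1, 5.31, 5.66 and 5.84 for atp-3 and 6.07, 6.16 and 5.94 for atp-5. After 3 h they were 4.83, 5.08 and 4.95 for atp-1, 5.81, 5.79 and 5.95 for atp-3 and 6.21, 6.25 and 6.10 for atp-5. On each slide the 3 h array was above the 15 °C array in these 3 genes.

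**Figure D3:**
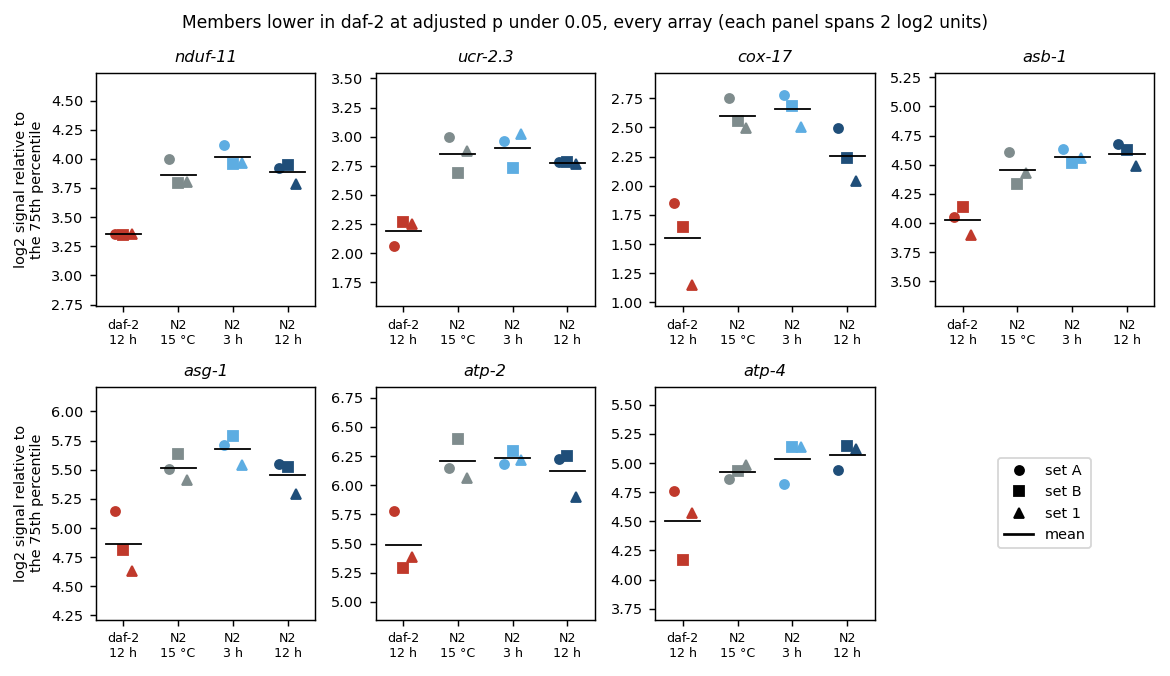
Log2 signal relative to the 75th percentile of the array for the 7 members past an adjusted p under 0.05, on every array, with group means as lines; symbols are replicate sets. In each panel the 3 daf-2 arrays lie below the 3 N2 arrays of 12 h, by -0.70 on average for cox-17 and by -0.53 for nduf-11.

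Of the ubiquinone enzymes only clk-1, the hydroxylase of the pathway whose mutants grow slowly and live long, belongs to the members. Its log2 signal was 2.00, 2.01 and 1.71 in daf-2, against 2.08, 2.01 and 1.89 in N2 at 12 h. The groups overlapped, and the difference was -0.09 ± 0.13 (SE; limma adjusted p = 0.643). Its sign turned under quantile normalization (0.08), with normexp (0.07), in the authors' series table (0.04) and without the daf-2 array of set 1 (0.01), so no direction is given.

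Paralogs of the same subunit were compared with each other within arrays. The gap between asb-1 and asb-2 on the same array was -0.20 to 0.03 in daf-2 and 0.23 to 0.42 in N2 at 12 h, without overlap, a difference of -0.37 between the paralogs' responses. The two-sided exact permutation p was 0.1, which is the smallest that 3 against 3 arrays allow. For ucr-2.3 and ucr-2.2 set against ucr-2.1 the responses differed by -0.53 and -0.51, and for sdha-2 against sdha-1 by -0.36, each with an exact permutation p of 0.2. The pair asg-1 and asg-2 differed by -0.25 (exact permutation p = 0.3). With 3 arrays a group this permutation test cannot pass 0.05 in any of these 5 pairs, and no other test of the pairs was run.

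Several members had more than 1 probe, which gives a second view of the same transcripts on the same arrays. The 50 members had 143 probes, 135 of which passed the signal filter, and 127 of those 135 were below 0 in daf-2. Of the 26 members with several passing probes, 23 had all their probes below 0. The exceptions were nuo-1, cox-5A and cox-6A. In nuo-1 a dim probe gave 0.71 where the others gave -0.70 and -0.38, and in cox-5A the other 6 of 7 probes were below 0. The 7 passing probes of cox-6A ran from -0.12 to 0.91. Probes of a gene share its RNA and can bind different transcript forms, so they are not independent measurements.

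**Figure D4:**
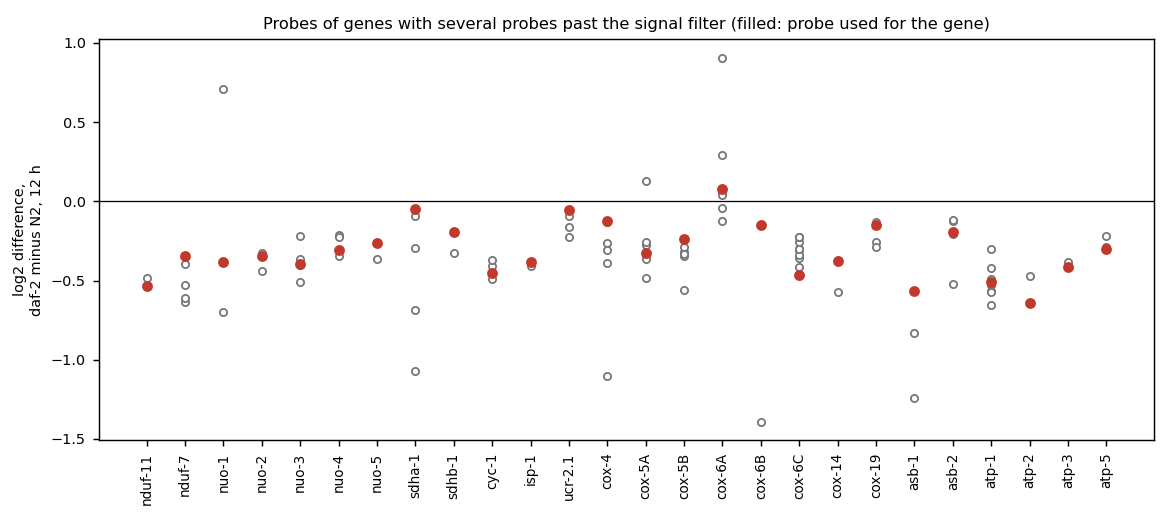
Log2 difference between daf-2 and N2 after 12 h for every passing probe of the 26 members with several such probes; filled points are the probes used for the genes. The 3 probes of asb-1 lie between -1.24 and -0.57, and only nuo-1, cox-5A and cox-6A have probes on both sides of 0.

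The calls rested on single arrays to a large degree, while the median over all members was below 0 in every such fit. The median over all genes tested was also below 0 in each, at -0.16 to -0.10. Relative to all genes, the members' median was -0.35 to -0.17. With the N2 array of 12 h from set A left out, or without that from set B, 0 members passed limma's adjusted p, with 12 and 10 at an unadjusted p under 0.05. Calls over all genes tested fell too in those fits, to 1595 and 1710 from 2964. Leaving out the daf-2 array of set 1 left 3 members. Leaving out that of set A or that of set B left 6 each, and leaving out the N2 array of set 1 left 7. With single arrays or whole sets left out, the medians were -0.52 to -0.21 in complex I, -0.43 to -0.07 in complex II, -0.59 to -0.35 in complex III, -0.33 to -0.12 in complex IV, -0.50 to -0.33 in its assembly factors and -0.58 to -0.40 in complex V. Over all members the median stayed between -0.49 and -0.26, and without all arrays of set B it was -0.36 with 48 members below 0, 0 passing and 6 at an unadjusted p under 0.05. Without set B the calls over all genes tested were 778.

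The shift of N2 from 15 °C to 25 °C changed no member at an adjusted p under 0.05. After 3 h, 0 of 50 members passed, against a background of 0.72% of all genes higher and 0.304% lower. At an unadjusted p under 0.05 there were 3 members (6%), against 9.24% of all genes. After 12 h against 15 °C, 0 of 50 passed, against 1.85% higher and 0.786% lower. Here 2 members (4%) had an unadjusted p under 0.05, against 15.8% of all genes. Between 12 h and 3 h, 0 of 50 passed, against 1.53% higher and 0.564% lower. An unadjusted p under 0.05 was found for 0 members, against 12.2% of all genes. With the replicate block the counts were also 0, and the lowest adjusted p among the members was 0.0924 after 3 h, 0.0991 after 12 h and 0.111 between the times.

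Most members stood slightly above 15 °C after the shift. After 3 h, 44 of the 50 differences were above 0, against 52.8% of all genes, with a median of 0.14 against 0.02. Without the 15 °C array of set 1 the median was 0.07 with 17 members below 0, against 0.02 over all genes, and without the 3 h array of set B it was 0.09 with 15 below 0; it was 0.08 with the mean of a gene's probes and 0.08 with centring on the array median. The set medians were 0.15, 0.12 and 0.13, and 31 members were above 0 on all 3 slides. For 7 members all 3 h arrays lay above all 15 °C arrays, a pattern found for 7.45% of all genes. After 12 h, 33 of the 50 were above 0, against 53.2% of all genes, with a median of 0.15 against 0.03. That median was 0.07 without the 15 °C array of set 1, 0.08 without the 12 h array of set B and 0.06 with centring on the array median. The centring also moved the median over all genes, to -0.04 after 3 h and -0.06 after 12 h. Relative to all genes the members' median was therefore 0.12 at each time, with or without it. Both comparisons use the same 15 °C arrays. Between 12 h and 3 h the median was -0.02, the same as over all genes at this precision, and its sign turned in 6 of 18 alternatives. The 34 sperm markers had medians of 1.14 after 3 h and 0.87 after 12 h, with 0 passing. Their mean log2 signal at 15 °C, 3 h and 12 h was 0.14, 1.80 and 2.79 in set A. It was 4.62, 4.61 and 4.09 in set B, and 0.44, 2.29 and 1.17 in set 1. All 11 embryo markers were below 0 after 3 h (median -0.59, 0 passing), 10 of 11 were above 0 after 12 h (median 0.49, 0 passing), and between 12 h and 3 h 5 of 11 were higher, against 1.53% of all genes, with a median of 0.97. The part of the sperm and embryo markers in the members' values was not tested. The 95% intervals of the members' differences lay within 1 log2 unit of 0 for 47 members after 3 h and 47 after 12 h, so a change of that size is outside the interval for them.

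**Figure D5:**
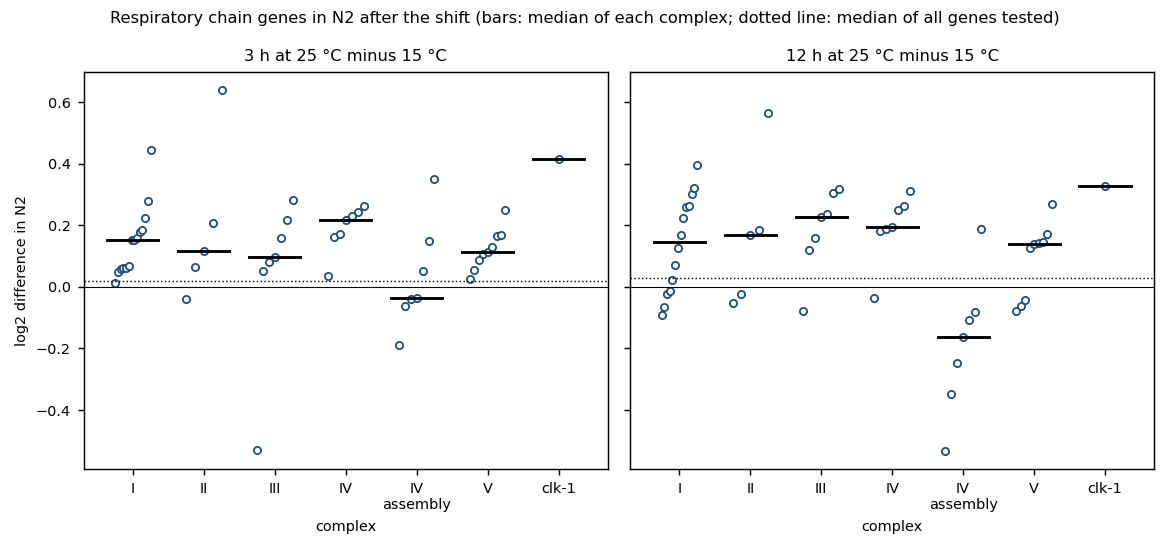
Log2 difference of each member in N2 after 3 h and after 12 h at 25 °C, each minus 15 °C, by complex; bars are the medians of the complexes and the dotted line is the median over all genes tested. After 3 h 44 of the 50 points lie above 0 and after 12 h 33 do, and the complex IV assembly factors have medians of -0.04 after 3 h and -0.16 after 12 h.

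The largest differences after the shift belonged to sdhd-1, clk-1 and nduf-5 on the upper side. For sdhd-1 they were 0.64 ± 0.28 after 3 h and 0.56 ± 0.28 after 12 h (SE; limma adjusted p = 0.531 and 0.387), and they were as large as 1.08 and 1.11 in set A, where the 15 °C array was low, against 0.53 and 0.36 in set B and 0.31 and 0.22 in set 1. The signal of clk-1 in N2 was 1.71, 1.66 and 1.63 at 15 °C, 2.05, 2.17 and 2.03 after 3 h, and 2.08, 2.01 and 1.89 after 12 h. Every 25 °C array was above every 15 °C array. The differences were 0.42 ± 0.13 after 3 h and 0.33 ± 0.13 after 12 h (SE; limma adjusted p = 0.26 for each), and they did not pass. For nduf-5, a complex I gene, the N2 signal was 3.08, 2.27 and 2.61 at 15 °C, 3.26, 3.35 and 2.69 after 3 h, and 3.09, 3.25 and 2.82 after 12 h. Its differences were 0.44 after 3 h and 0.40 after 12 h, and the 15 °C array of set B was the low one.

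On the lower side, ucr-1 had -0.53 ± 0.33 after 3 h (SE) and the assembly factors cox-10 and cox-18 followed with -0.19 and -0.06. After 12 h cox-10 had -0.53 ± 0.23, cox-17 had -0.35 ± 0.20 and cox-18 had -0.25 ± 0.19 (SE; limma adjusted p = 0.297, 0.478 and 0.64). For cox-10 and cox-17 all 12 h arrays were below all 15 °C arrays. They were the only 2 of the 50 members with that pattern, which 1046 of the 13481 genes tested showed. For 8 members all 12 h arrays were above all 15 °C arrays, as they were for 1701 of the genes tested. Between 12 h and 3 h, all 7 assembly factors were below 0, from -0.40 for cox-17 to -0.04 for cox-15, with a median of -0.18. The subunits of the 5 complexes had a median of 0.00 in the same comparison, with 21 of 42 above 0. None of these members passed, and ucr-1 was the highest between the times, at 0.65 ± 0.33 (SE; limma adjusted p = 0.496), followed by gas-1 at 0.24 and nduf-9 at 0.16.

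Other genes of the pathway were placed beside the members by lists that were chosen with earlier results of these data known; the shares over all genes tested to read their counts against are 7.6% lower and 14.4% higher. Complex I subunits and assembly factors under other symbols had 2 of 26 lower, 0 higher and a median of -0.33 in daf-2; the 2 were ndus-8, a core subunit gene (-0.58), and ndub-11, an accessory subunit gene (-0.43), and 2 of 26 is near the share over all genes. Of 16 measured genes of the citric acid cycle and pyruvate dehydrogenase, 3 were lower and 0 higher, with a median of -0.37. Those 3 were suca-1 and sucg-1, subunits of succinyl-CoA synthetase, at -0.75 and -0.60, and cts-1, citrate synthase, at -0.66. Of 13 measured genes of mitochondrial import and inner membrane structure, 2 were lower and 0 higher, the import receptor gene tomm-22 (-0.57) and immt-2, a mitofilin homolog (-0.51), with a median of -0.42.

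The list named for electron carriers and ubiquinone synthesis held 15 genes, with clk-1 among them, and its median was -0.09. It also took in dehydrogenase genes such as gpdh-1 and gpdh-2, which have neither function. In daf-2, 2 were lower, coq-5 of ubiquinone synthesis (-0.59) and dhod-1, dihydroorotate dehydrogenase (-0.63). The sulfide:quinone oxidoreductase gene sqrd-1 was the 1 that was higher (2.05 ± 0.27, SE; limma adjusted p = 0.000632). Of 7 genes of ATP export and ATP synthase regulation, 2 were higher in daf-2 and 0 lower, with 5 of 7 below 0 and a median of -0.14. They were ant-1.2, an adenine nucleotide translocator (2.67 ± 0.59, SE), and mai-1, a homolog of the ATPase inhibitor (0.76 ± 0.20, SE). The largest difference of this list was that of ant-1.3, another translocator gene, at -3.17 ± 1.22 (SE; limma adjusted p = 0.0902, and 0.0305 with the replicate block). In the 3 comparisons within N2, 0 genes of these 5 lists passed without the replicate block. With the block, 4 passed after 12 h against 15 °C: ndus-8 (0.48) and gpdh-1, a glycerol-3-phosphate dehydrogenase gene (1.23), were higher, and coq-8 of ubiquinone synthesis (-0.71) and aco-2, aconitase (-0.63), were lower. Between 12 h and 3 h, gpdh-1 (0.76) and aco-2 (-0.58) passed with the block. The block shares over all genes tested were 5.09% higher and 2.46% lower after 12 h against 15 °C. Between 12 h and 3 h they were 3.98% and 1.44%. The few calls of these lists are to be read against those shares.

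Markers of other tissues were set beside the difference between the strains, because RNA from whole worms cannot tell fewer cells of a type from less RNA per cell. Over all genes tested, 7.6% were lower, 14.4% higher and 58.2% below 0, with a median of -0.14. All 18 germline and oocyte markers were below 0 in daf-2, 9 fell, and their median was -0.59. Their mean log2 signal was 3.32 to 3.47 on the daf-2 arrays and 3.74 to 4.12 on the N2 arrays of 12 h, without overlap. All 34 measured sperm markers were below 0 with a median of -2.13, and 1 passed. The gap was widest in set B, where their mean log2 signal was -1.07 in daf-2 and 4.09 in N2 at 12 h. In set A it was 1.36 against 2.79. The order was reversed in set 1, with 1.43 in daf-2 and 1.17 in N2. Muscle markers, from a tissue rich in mitochondria, had a median of -0.10 with 0 of 13 passing, neuronal markers 0.23 with 0 of 11 passing, and embryo markers 0.25 with 1 of 11 higher and 0 lower. Intestinal markers had 3 of 11 higher and 3 lower with a median of 0.07, and cuticle markers 2 of 8 higher and 0 lower with a median of -0.44. Each group also held the same position on every slide, so position and group cannot be told apart. The part of the germline and sperm differences in the lower signal of the respiratory chain genes was not tested.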

How the data were processed

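Intensity values were deposited for 12 single-colour arrays. Per the file headers, the scanner software was Agilent Feature Extraction, version 10.10.1.1, run with a protocol for single-colour arrays, and the processed signal is a background-subtracted linear intensity with no scaling between arrays. The deposited flags mark control, saturated, uneven and detected spots. The authors' series table holds the same intensity values multiplied by a constant for each array (largest deviation 0.0373 in log2), for 24939 to 35344 probes; the sources used here do not give how the authors set the constants or chose the probes.

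Here log2 processed signal minus the array's 75th percentile was used, with uneven spots missing and repeated spots averaged. Of 43603 probes, 34320 were matched to 1 gene through a RefSeq table. A probe was kept if some group had it well above background on its 3 arrays, and the brightest probe stood for its gene. The model was fitted to all 12 arrays together with limma (version 3.58.1, under R 4.3.3), and p-values were adjusted over all 13481 genes by Benjamini and Hochberg; a gene was called at an adjusted p under 0.05. The fit was tested on simulated data. Plots used Python 3.11.15 with pandas 2.3.3 and matplotlib 3.10.9.

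The members and lists were chosen with earlier results of these data known. Values on every array are given for called members (up to 8 each way per comparison), for 32 members listed by complex and for the 3 largest differences each way; list genes are named when called, up to 4 a list. Replicate sets were checked for pairing through the correlation of deviations from group means. It was 0.45 to 0.894 for N2 arrays sharing a set, but between daf-2 and N2 it was 0.39 in set A, -0.4 in set B and 0.128 in set 1. Between the strains the values thus showed no consistent set effect, and only the shared slide pairs the arrays. Set 1 was scanned on a different day from the other sets. The alternatives were other scalings, background corrections, filters, probe rules, blocks and arrays left out. The mean spot signal was not among the columns, so the background alternative (normexp, offset 50) used the median spot signal. Of the 6 pairs of related members compared, 1 is not reported here.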

Additional observations from a re-analysis of the deposited data

How the results depend on the processing

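In the comparison of daf-2 with N2 the main count was 7 members lower and 0 higher. It was 3 with normexp background correction and quantile normalization, 3 with quantile normalization alone, 3 with no filter on dim probes, 2 with a fit of only the groups compared and 0 with centring on the array median, where 14 had an unadjusted p under 0.05. With the replicate block it was 25. It was 6 in the authors' series table and 7 with a stricter filter or with the mean of a gene's probes. Leaving out arrays or sets gave 0 to 7, with 0 without set A, 0 without set B and 1 without set 1; at an unadjusted p under 0.05 these had 9, 6 and 14. Over all genes tested, 839, 778 and 2736 passed without set A, B and 1, against 2964 in the main fit. With centring on the array median 1648 of all genes passed, and with the replicate block 5055. Every one of these settings gave 0 members higher, and the members' median ran from -0.62 to -0.21. Among the called members, asb-1 and nduf-11 passed in 11 of 18 alternatives each, ucr-2.3 in 9, cox-17 in 8, asg-1 and atp-2 in 6 each and atp-4 in 4; their adjusted p reached at most 0.354, and none of the 7 changed sign. In the 3 comparisons within N2, 0 members passed under all alternatives run. The complex IV assembly median after 3 h at 25 °C had the opposite sign in 6 of 18 alternatives, all of which left out arrays. With 3 arrays a group, the standard errors of the members' differences ran from 0.12 to 0.33.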
